A study of Mus musculus with 24 samples.

Results

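Krüppel-like factors were examined as a family of 10 genes, Klf2, Klf3, Klf4, Klf5, Klf6, Klf7, Klf9, Klf10, Klf13 and Klf15, which were chosen by name out of the 24825 genes listed in each library. RNA-seq was made from the stromal vascular fraction of inguinal white fat. The donor mice were Nfia flox/flox (exon 2 floxed), and all groups carried the SV40 large T antigen that immortalised the cells. The 4 cell types were ctrl (empty retroviral vector), Cre (retroviral Cre recombinase), Cre + NFIA (as Cre, with 3xFLAG full-length NFIA added) and, as the fourth, Cre + NFIA Δpro#3 (as Cre, with a 3xFLAG NFIA added from which a proline-rich segment near the C-terminus is deleted). Cells were collected before induction (day 0) and after 7 days of differentiation towards thermogenic adipocytes, and 3 libraries were made for each of the 8 groups, 24 in all. Induction was for 48 hours with 0.5 mM isobutylmethylxanthine, 125 nM indomethacin, 1 µM dexamethasone, 1 µM rosiglitazone, 1 nM T3 and 850 nM insulin, of which the last 3 were continued afterwards. Full-length or mutant NFIA came from a constitutive retroviral vector, so Cre + NFIA and Cre + NFIA Δpro#3 cells held it already at day 0. Nothing in the labels says that replicates were separate cultures, so the p-values measure only the spread between these libraries.

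Krüppel-like factors are transcription factors that bind CACCC and GC-rich sequences through zinc fingers at their C-terminus, while their N-terminal regions recruit activators or repressors. In fat cell precursors they act at successive steps. KLF4 acts with EGR2 (KROX20) to switch on Cebpb early after induction, KLF5, KLF9 and KLF15 promote expression of Pparg, the master regulator of adipogenesis, and KLF6 represses Dlk1, a preadipocyte gene. KLF2 represses the Pparg promoter, KLF3 represses Cebpa through the co-repressor CtBP, and KLF7 restrains fat cell differentiation.

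Levels are FPKM (fragments counted per gene, scaled to gene length and to the library's total), which allows genes to be compared per length. The day 0 libraries held 7.73 to 13.09 M counted reads (M, 1000000) and those of day 7 held 9.15 to 14.62 M. A gene was tested where 3 or more libraries had an FPKM of at least 1, which left 12640 genes and 9 of the 10 family members. Klf5 did not pass this filter, and differences below are therefore those of the 9 others. A difference, given ± its standard error, is that of mean log2(FPKM + 1), a scale that makes changes of low genes smaller, and it passed at a Benjamini-Hochberg adjusted p under 0.05 from limma over all tested genes. Adipocyte markers (8 genes, summed FPKM) were at 31.8 to 58.1 at day 0. At day 7 they reached 20468 to 24056 in ctrl, 3935 to 8712 in Cre, 19137 to 19349 in Cre + NFIA and 670 to 1842 in Cre + NFIA Δpro#3. Precursor or fibroblast markers (7 genes) summed to 2931 to 3381 at day 0. Their day 7 sums were lower, at 885 to 968, 1886 to 2167, 805 to 902 and 2049 to 2421 in the same order. The single genes were mixed, as 2 passed as higher at day 7 and 5 as lower in each of ctrl, Cre and Cre + NFIA. In Cre + NFIA Δpro#3, 3 passed as higher and 2 as lower. Shares of all tested genes are given with the comparison of days below. Of other cells, macrophage and leukocyte markers (6 genes) summed to 5.90 to 22.1 FPKM and mesothelial markers (4 genes) to 1.22 to 8.69, while epithelial (4 genes) and skeletal muscle markers (5 genes) reached at most 0.311 and 0.226. Endothelial markers (7 genes) summed to 1.67 to 10.2 FPKM. The endothelial gene Tie1 was at 0 in every library, while Tek reached 7.34 FPKM. The leukocyte gene Ptprc had at most 1 read, while Cd68 and Cd14 reached 8.23 and 8.62 FPKM. Of the mesothelial genes Krt19 reached 8.56 FPKM, while Wt1 and Upk3b reached 0.441 and 0.12 and Msln had at most 1 read. A lower level in such a culture can mean fewer cells of a type or less RNA per cell, and these cannot be told apart. Nfia itself was read at 5.34 to 6.81 FPKM in the Cre libraries and 6.23 to 6.75 in ctrl at day 0, and this gene-level value, which includes exons outside the floxed one, does not check the deletion. With the vectors it was 69.7 to 74.9 in Cre + NFIA and 59.7 to 61.7 with the mutant at day 0.

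At day 0 the family was dominated by Klf3, Klf4 and Klf6. These 3 genes held 78.8% ± 2.45 of the summed FPKM of the 10 genes in ctrl (SD, n = 3) and 77.3% to 79.9% as means of all 4 cell types. At day 7 their share was 55.1% ± 2.42 in ctrl, 65.4% ± 1.30 in Cre, 48.0% ± 1.60 in Cre + NFIA and 66.5% ± 0.515 in Cre + NFIA Δpro#3. Over the same time the summed level of the family went from 189 ± 8.76 FPKM to 104 ± 4.77 in ctrl and from 186 ± 11.1 to 97.1 ± 1.16 in Cre + NFIA. In Cre it went from 187 ± 7.22 to 153 ± 4.17, and in Cre + NFIA Δpro#3 from 165 ± 1.86 to 159 ± 7.29.

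**Figure D1:**
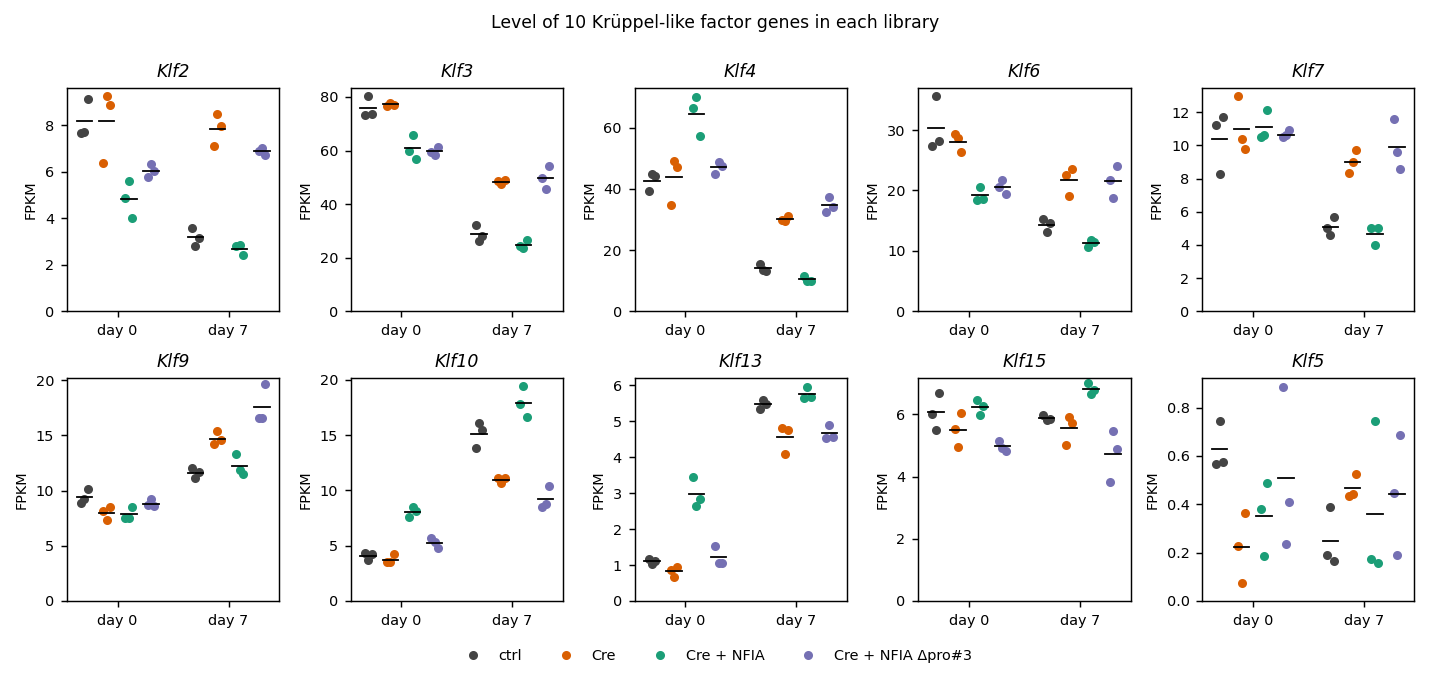
Level of each of the 10 Krüppel-like factor genes in FPKM (y axis, from 0) in every library, by day (x axis) and cell type (colour). Points are single libraries and bars are means of 3. Klf2, Klf3, Klf4, Klf6 and Klf7 sit low at day 7 in ctrl and Cre + NFIA and higher in Cre and Cre + NFIA Δpro#3, and Klf10 shows the opposite order.

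**Figure D2:**
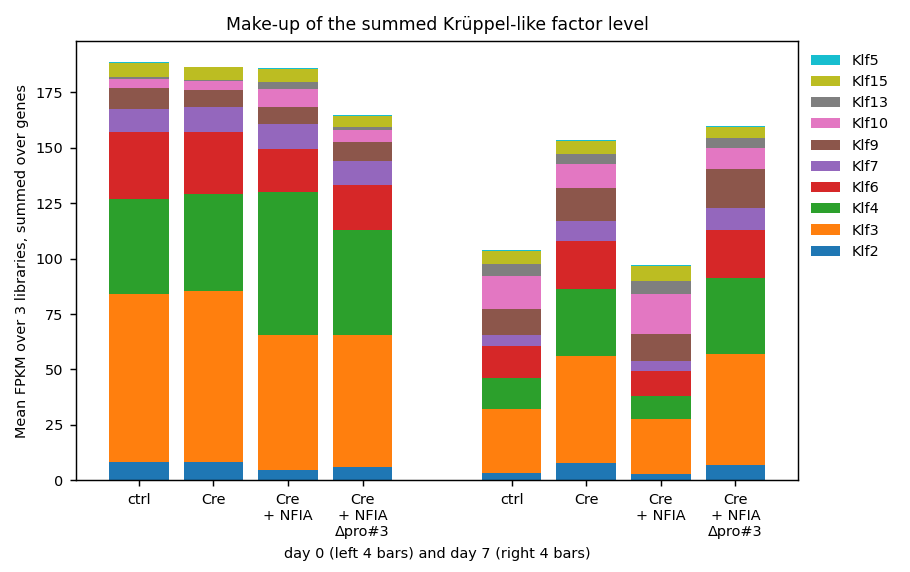
Mean FPKM over 3 libraries (y axis, from 0) stacked over the 10 genes for each cell type at day 0 and day 7. The stacks of ctrl and Cre + NFIA reach 104 and 97.1 FPKM at day 7, against 153 in Cre and 159 in Cre + NFIA Δpro#3.

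Klf4, an activator of the first steps of adipogenesis and a pluripotency factor in other cells, had the widest range of group means of the family. At day 0 its FPKM was 39.4, 44.7 and 44.1 in the 3 ctrl libraries, 34.7, 49.2 and 47.2 in Cre, 66.4, 69.9 and 57.1 in Cre + NFIA and 44.8, 48.7 and 47.6 in the mutant, Cre + NFIA Δpro#3. Its day 7 values were 15.6, 13.6 and 13.3 in ctrl, 29.8, 29.5 and 31.1 in Cre, 11.4, 9.78 and 10.0 in Cre + NFIA and 32.3, 37.3 and 34.2 in Cre + NFIA Δpro#3. Cre + NFIA thus held the highest libraries of all 24 at day 0 and the lowest at day 7, and neither group overlapped any other. The day 0 libraries of the 3 other cell types overlapped.

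Klf3, a repressor, was the most abundant member in 7 of the 8 groups, the exception being Cre + NFIA at day 0 where Klf4 was above it. Its FPKM at day 0 was 73.2, 80.5 and 73.7 in ctrl, 76.8, 77.8 and 77.1 in Cre, 60.0, 65.8 and 57.0 in Cre + NFIA and 59.4, 58.5 and 61.2 in Cre + NFIA Δpro#3. Its day 7 values were 32.1, 26.3 and 28.1 in ctrl, 48.8, 47.4 and 49.1 in Cre, 24.5, 23.8 and 26.5 in Cre + NFIA and 49.7, 45.8 and 54.1 in the mutant. The groups formed 4 steps of overlapping pairs. At day 0 these were ctrl with Cre, and Cre + NFIA with Cre + NFIA Δpro#3. At day 7 they were Cre with Cre + NFIA Δpro#3, and ctrl with Cre + NFIA.

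Klf2, a repressor of Pparg that is also well known in endothelium, was a low member. At day 0 it read 7.67, 7.73 and 9.13 FPKM in ctrl, 6.39, 9.26 and 8.89 in Cre, 4.86, 5.60 and 4.01 in Cre + NFIA and 5.79, 6.32 and 6.04 in Cre + NFIA Δpro#3. At day 7 these were 3.59, 2.83 and 3.16 in ctrl, 7.12, 8.48 and 7.98 in Cre, 2.79, 2.87 and 2.41 in Cre + NFIA and 6.89, 7.01 and 6.73 in the mutant. The Cre libraries of both days overlapped, while the day 7 libraries of ctrl lay below every day 0 library. Endothelial markers (7 genes) summed to 1.67 to 10.2 FPKM over all libraries, with 1 to 3 of them at 0 throughout a group, and their part in the Klf2 level was not tested.

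Klf6, a repressor of Dlk1, was the third gene of the abundant group at day 0. Its FPKM was 27.3, 35.7 and 28.2 in ctrl, 29.3, 28.7 and 26.4 in Cre, 18.5, 20.5 and 18.6 in Cre + NFIA and 20.5, 21.7 and 19.4 in Cre + NFIA Δpro#3 at day 0, and 15.2, 13.1 and 14.6 in ctrl, 22.6, 19.1 and 23.6 in Cre, 10.7, 11.8 and 11.4 in Cre + NFIA and 21.8, 18.8 and 24.1 in the mutant at day 7. Klf7 read 11.2, 8.30 and 11.7 in ctrl, 13, 10.4 and 9.76 in Cre, 10.5, 10.6 and 12.1 in Cre + NFIA and 10.5, 10.6 and 10.9 in the mutant at day 0, where all 4 cell types overlapped. At day 7 Klf7 read 5.01, 4.57 and 5.68 in ctrl, 8.31, 9.01 and 9.71 in Cre, 5.02, 3.97 and 5.02 in Cre + NFIA and 11.6, 9.61 and 8.57 in Cre + NFIA Δpro#3. For both genes the day 7 libraries of Cre and Cre + NFIA Δpro#3 overlapped each other and lay above those of ctrl and Cre + NFIA.

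Klf9, a glucocorticoid-induced activator of Pparg, rose with time in every cell type. It read 8.89, 9.22 and 10.1 FPKM in ctrl, 8.11, 7.33 and 8.48 in Cre, 7.48, 7.53 and 8.55 in Cre + NFIA and 8.65, 9.23 and 8.57 in Cre + NFIA Δpro#3 at day 0. The day 7 values were 12, 11.1 and 11.7 in ctrl, 14.2, 15.4 and 14.6 in Cre, 13.3, 11.9 and 11.5 in Cre + NFIA and 16.6, 16.6 and 19.6 in the mutant. The Cre + NFIA Δpro#3 libraries at day 7 were above all others, and ctrl and Cre + NFIA overlapped at that day.

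Klf10, first described as a TGFβ-inducible early gene, read 4.35, 3.73 and 4.26 FPKM in ctrl, 3.48, 3.54 and 4.23 in Cre, 7.58, 8.51 and 8.12 in Cre + NFIA and 5.69, 5.30 and 4.75 in Cre + NFIA Δpro#3 at day 0. The day 7 values were 13.8, 16.1 and 15.5 in ctrl, 11.1, 10.7 and 11.1 in Cre, 17.8, 19.4 and 16.6 in Cre + NFIA and 8.5, 8.78 and 10.4 in the mutant. Cre + NFIA was highest at each day, and ctrl and Cre overlapped at day 0 but not at day 7. Klf13, a close relative of Klf9, was near 1 FPKM before induction in all but 1 cell type, with 1.18, 1.04 and 1.12 in ctrl, 0.862, 0.667 and 0.959 in Cre, 3.46, 2.65 and 2.83 in Cre + NFIA and 1.54, 1.07 and 1.07 in Cre + NFIA Δpro#3. At day 7 Klf13 read 5.35, 5.60 and 5.47 in ctrl, 4.82, 4.10 and 4.76 in Cre, 5.64, 5.95 and 5.67 in Cre + NFIA and 4.54, 4.91 and 4.56 in the mutant, where the Cre and Cre + NFIA Δpro#3 libraries overlapped. No cell type overlapped between days for either gene.

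Klf15, which activates Slc2a4 (GLUT4) and amino acid catabolism, was the steadiest tested member, with a range of 0.46 over the 8 group means of log2(FPKM + 1) against 2.52 for Klf4. It read 6.0, 5.51 and 6.69 in ctrl, 5.54, 4.95 and 6.03 in Cre, 6.45, 5.97 and 6.28 in Cre + NFIA and 5.15, 4.93 and 4.82 in Cre + NFIA Δpro#3 at day 0, and 5.97, 5.81 and 5.86 in ctrl, 5.02, 5.91 and 5.72 in Cre, 7.02, 6.65 and 6.80 in Cre + NFIA and 3.82, 5.47 and 4.90 in the mutant at day 7. Day 0 and day 7 overlapped in 3 of the 4 cell types. Klf5, an activator of Pparg, was listed at 0.075 to 0.883 FPKM, which is 1 to 19 reads per library, with a median of 0.398 FPKM, and no comparison was made for it.

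The first comparison was of day 7 with day 0 in each cell type. In ctrl, Klf2, Klf3, Klf4, Klf6 and Klf7 fell and Klf9, Klf10 and Klf13 rose. Klf4 went from a mean of 42.7 to 14.2 FPKM (difference -1.53 ± 0.10, adjusted p = 2.73e-11) and Klf3 from 75.8 to 28.8 (-1.37 ± 0.07, adjusted p = 2.44e-13). Klf2 changed by -1.13 ± 0.11 (adjusted p = 1.63e-08), Klf6 by -1.03 ± 0.10 (adjusted p = 6.64e-09) and Klf7 by -0.90 ± 0.12 (adjusted p = 1.5e-06). Klf10 rose 3.68-fold in mean FPKM (1.66 ± 0.08, adjusted p = 3.03e-13), Klf13 4.91-fold (1.61 ± 0.09, adjusted p = 1.65e-12) and Klf9 1.23-fold (0.28 ± 0.07, adjusted p = 0.00257). Of the 9 tested members 5 passed as lower, where 38.1% of all tested genes did, and 3 as higher, where 32.9% did. Klf10 and Klf13 also passed a limit of 3-fold on the log2(FPKM + 1) scale, which 5.64% of genes did upwards.

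In Cre the same 3 genes rose and only Klf3, Klf4 and Klf6 passed as lower. Klf3 changed by -0.66 ± 0.07 (adjusted p = 7.55e-08), Klf4 by -0.51 ± 0.10 (adjusted p = 0.000342) and Klf6 by -0.36 ± 0.10 (adjusted p = 0.0042), so their day 7 means were 62.6%, 68.9% and 77.3% of day 0, against 38.0%, 33.2% and 47.0% in ctrl. Klf2 stood at 96.1% of its day 0 mean, with an interval of the difference from -0.28 to 0.20. Klf13 rose by 1.60 ± 0.09 (SE), the only member past 3-fold, where 2.26% of all genes were. As background 30.0% of all tested genes rose in Cre and 21.6% fell. With quantile normalization these shares were 22.7% and 29.8%, and Klf7 then also passed as lower.

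In Cre + NFIA 5 members fell, the 5 that fell in ctrl, and 3 rose. Klf4 went from 64.5 to 10.4 FPKM, a 6.20-fold drop (-2.52 ± 0.10, adjusted p = 8.67e-15), and was the one member past 3-fold, as 3.31% of all genes were downwards. Klf3 changed by -1.26 ± 0.07 (adjusted p = 8.9e-13) and Klf7 by -1.09 ± 0.12 (adjusted p = 8.91e-08). Klf13 rose 1.93-fold in mean FPKM (0.77 ± 0.09, adjusted p = 2.07e-07) from its higher start at day 0, and Klf10 rose 2.22-fold. All tested genes gave 31.8% higher and 38.3% lower.

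In Cre + NFIA Δpro#3 only Klf3 and Klf4 passed as lower, by -0.26 ± 0.07 (adjusted p = 0.00483) and -0.43 ± 0.10 (adjusted p = 0.00199), and Klf9, Klf10 and Klf13 rose. Klf9 rose 2.0-fold (0.92 ± 0.07, adjusted p = 3.57e-09). Klf2, Klf6 and Klf7 stood at 114%, 105% and 93.5% of their day 0 means, with intervals of the difference from -0.08 to 0.40, from -0.14 to 0.27 and from -0.36 to 0.16. The background was 24.5% higher and 17.0% lower, and 19.1% and 20.7% with quantile normalization. For Klf15 the intervals were from -0.22 to 0.15 in ctrl, from -0.18 to 0.20 in Cre, from -0.07 to 0.30 in Cre + NFIA and from -0.26 to 0.12 in Cre + NFIA Δpro#3.

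**Figure D3:**
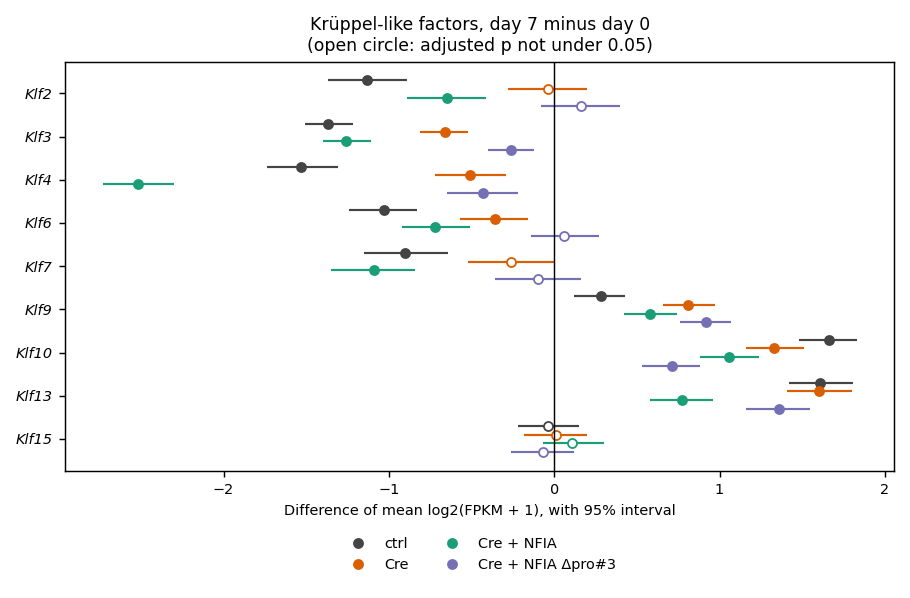
Difference of mean log2(FPKM + 1) between day 7 and day 0 (x axis) with its 95% interval for the 9 tested members (y axis) in each cell type (colour). Filled circles passed at adjusted p under 0.05 and open ones did not. Klf4 in Cre + NFIA lies farthest to the left at -2.52, and Klf10 in ctrl farthest to the right at 1.66.

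Promoter sequences, the 250 bases before the RefSeq start site on GRCm38.p6 written 5′ to 3′, are shown for 2 members that fell in all 4 cell types and 2 that rose in all 4. The RefSeq table held 8 of the 10 members, without Klf5 and Klf10. Capitals mark CACCC or its reverse complement GGGTG, the box that Krüppel-like factors bind, in the Klf3 sequence (chr5:64803271-64803520, plus strand). In the Klf4 sequence (chr4:55532476-55532725, minus strand) no match of this box or of the NFI motif was found. Capitals mark TTGGC or GCCAA, the core that nuclear factor I proteins bind, in Klf9 (chr19:23140976-23141225, plus strand) and Klf13 (chr7:63938916-63939165, minus strand). The Klf9 and Klf13 windows each also held 1 match of CACCC or GGGTG, left here in lower case. No match of TTGGC or GCCAA was found in the Klf3 window.
Klf3: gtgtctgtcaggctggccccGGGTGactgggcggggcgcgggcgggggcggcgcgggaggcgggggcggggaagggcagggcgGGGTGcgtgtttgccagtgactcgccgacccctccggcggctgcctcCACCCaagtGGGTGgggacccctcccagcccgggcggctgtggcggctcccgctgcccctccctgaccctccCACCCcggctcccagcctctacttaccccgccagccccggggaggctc
Klf4: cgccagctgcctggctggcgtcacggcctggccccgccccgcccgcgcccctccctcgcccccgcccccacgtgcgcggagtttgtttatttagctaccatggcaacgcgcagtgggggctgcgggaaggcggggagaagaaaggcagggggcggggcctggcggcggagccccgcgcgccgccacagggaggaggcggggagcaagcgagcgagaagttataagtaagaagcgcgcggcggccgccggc
Klf9: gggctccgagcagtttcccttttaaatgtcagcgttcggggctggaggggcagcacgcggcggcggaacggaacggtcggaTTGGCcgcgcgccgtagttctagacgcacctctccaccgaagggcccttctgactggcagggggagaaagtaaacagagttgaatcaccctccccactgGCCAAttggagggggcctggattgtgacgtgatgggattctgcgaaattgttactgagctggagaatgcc
Klf13: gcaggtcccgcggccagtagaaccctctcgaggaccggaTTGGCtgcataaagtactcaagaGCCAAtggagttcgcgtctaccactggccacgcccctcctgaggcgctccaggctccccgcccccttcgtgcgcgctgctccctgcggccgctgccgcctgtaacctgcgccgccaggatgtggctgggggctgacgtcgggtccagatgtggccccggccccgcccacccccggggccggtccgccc

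The Klf3 window held 5 matches of the box, and 6 of the 8 members had at least 1, as did 52% of 32851 promoters of the same length. TTGGC or GCCAA was in 4 of 8, those of Klf6, Klf9, Klf13 and Klf15, against 41.5% of promoters. The same 4 held the CCAAT box (CCAAT or ATTGG, which can share letters with the NFI core), as 33.8% of promoters did. TGACG or CGTCA, a core of cAMP response elements, was in 5 of 8 against 17.8%. The glucocorticoid receptor motif TGTTCT or AGAACA was in none of the 8 windows and in 16.1% of all. The windows of Klf3 and Klf4 were 78.4% and 74.0% G or C and those of Klf9 and Klf13 59.6% and 71.6%, against a median of 52.4%. These matches describe letters in the windows, and no binding was measured here.

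At day 7 Cre was compared with ctrl, which asks what differs in differentiated cultures when Nfia is targeted. Klf2, Klf3, Klf4, Klf6, Klf7 and Klf9 were higher in Cre and Klf10 and Klf13 were lower. Klf2 was 2.46-fold higher in mean FPKM (1.08 ± 0.09, adjusted p = 1.6e-06) and Klf4 2.13-fold (1.04 ± 0.08, adjusted p = 1.03e-06). Klf7 was 1.77-fold higher (0.72 ± 0.12, adjusted p = 0.000214), Klf3 1.68-fold (0.73 ± 0.08, adjusted p = 9.64e-06), Klf6 1.52-fold (0.57 ± 0.10, adjusted p = 0.000347) and Klf9 1.27-fold (0.32 ± 0.08, adjusted p = 0.00295). Klf10 was 1.38-fold lower (-0.43 ± 0.08, adjusted p = 0.000701) and Klf13 1.2-fold lower (-0.22 ± 0.07, adjusted p = 0.0155). The Cre and ctrl libraries did not overlap for these 8 genes. The share of all tested genes without such overlap was not counted. Klf15 differed by -0.07 with an interval from -0.29 to 0.14. Among the 9 tested members 6 were higher, where 36.1% of all tested genes were, and 2 lower, where 22.7% were. Size factors by median of ratios turned this background to 26.9% and 31.2%, moved the median of all genes from 0.09 to -0.02, and left 6 members higher and 2 lower. Without Cre replicate 2 Klf13 no longer passed (difference -0.16, adjusted p = 0.0639), nor with only the groups compared in the model (-0.22, adjusted p = 0.0529).

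Full-length NFIA was then compared with Cre alone at day 7. All 9 tested members passed, 6 as lower, the 6 that were higher in Cre than in ctrl, and 3 as higher. The Cre libraries are shared with the comparison above, so opposite signs are not independent. Klf2 was 2.92-fold lower (-1.26 ± 0.09, adjusted p = 2.01e-07) and Klf4 2.90-fold lower (-1.45 ± 0.08, adjusted p = 3.26e-08). Klf3 was 1.94-fold lower (-0.93 ± 0.08, adjusted p = 8.68e-07), Klf6 and Klf7 each 1.93-fold and Klf9 1.2-fold (-0.25 ± 0.08, adjusted p = 0.0118). Klf10 was 1.64-fold higher (0.66 ± 0.08, adjusted p = 2.02e-05), Klf13 1.26-fold and Klf15 1.23-fold (0.26 ± 0.10, adjusted p = 0.0366). All tested genes were lower in 35.9% and higher in 27.0%, or 29.1% and 33.7% with median-of-ratios size factors, where Klf9 no longer passed (-0.15, adjusted p = 0.0851). Klf9 also lost its call without Cre + NFIA replicate 3 (-0.21, adjusted p = 0.052). Klf15 lost its call without any 1 of Cre replicates 1 and 3 and the 3 Cre + NFIA libraries, with differences of 0.20 to 0.28 and adjusted p of 0.0559 to 0.137, and with no filter on low values (0.26, adjusted p = 0.0588).

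The Δpro#3 mutant against Cre at day 7 gave 1 passing member. Klf9 was 1.19-fold higher (0.24 ± 0.08, adjusted p = 0.0499), where 7.70% of all tested genes were higher, and the call was lost without any 1 of the 12 day 7 libraries except Cre + NFIA replicate 1, with differences of 0.16 to 0.28 and adjusted p of 0.0524 to 0.156. It was also lost under 6 other settings, with differences of 0.22 to 0.25 and adjusted p of 0.0519 to 0.113. No member was lower by limma, where 10.0% of genes were. At an unadjusted p under 0.05 Klf10 was lower, and limma voom on recovered reads gave 0 lower. Klf10 differed by -0.23 (interval from -0.41 to -0.05, adjusted p = 0.0744), and passed without Cre + NFIA Δpro#3 replicate 3 (-0.31, adjusted p = 0.0209). For the genes that fell most under full-length NFIA the intervals were from -0.36 to 0.02 for Klf2, from -0.13 to 0.21 for Klf3, from 0.02 to 0.36 for Klf4, from -0.23 to 0.20 for Klf6 and from -0.13 to 0.37 for Klf7.

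Compared directly at day 7, the mutant and full-length NFIA differed in all 9 tested members. Klf4 was 3.33-fold higher with the mutant (1.64 ± 0.08, adjusted p = 7.4e-09) and past 3-fold, as 2.33% of all genes were. Klf2 was 2.56-fold higher (1.10 ± 0.09, adjusted p = 3.3e-07), Klf7 2.13-fold, Klf3 2.0-fold, Klf6 1.91-fold and Klf9 1.44-fold. Klf10 was 1.94-fold lower (-0.89 ± 0.08, adjusted p = 1.06e-06), Klf15 1.44-fold lower (-0.46 ± 0.10, adjusted p = 0.00118) and Klf13 1.23-fold lower. The 6 higher stand beside 40.4% of all tested genes and the 3 lower beside 28.9%. In these comparisons the adipocyte and precursor marker sums given above moved with the groups, and their part in the family's differences was not tested.

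**Figure D4:**
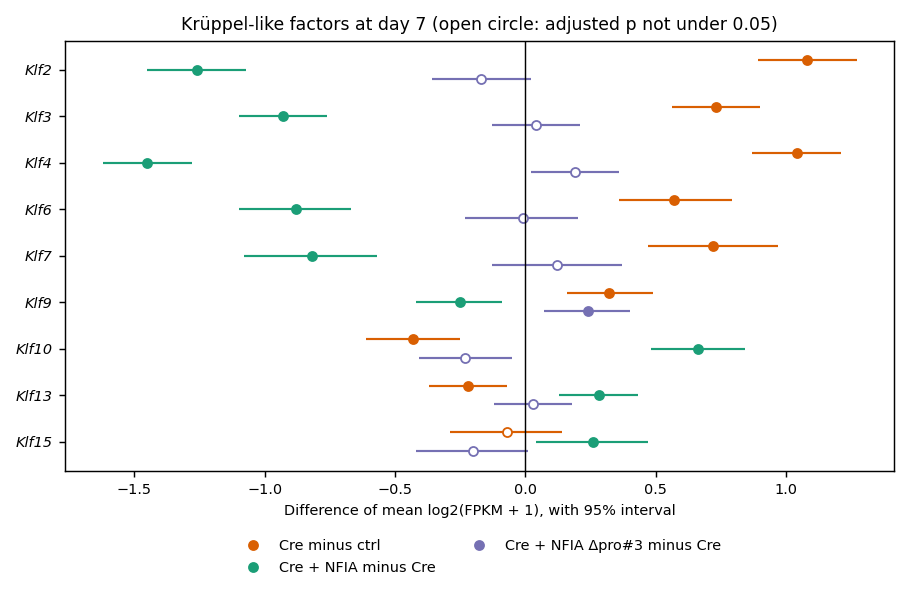
Difference of mean log2(FPKM + 1) at day 7 (x axis) with its 95% interval for the 9 tested members (y axis) in 3 comparisons (colour) that share the Cre libraries. Klf2 and Klf4 stand at 1.08 and 1.04 in Cre minus ctrl and at -1.26 and -1.45 in Cre + NFIA minus Cre. In the mutant minus Cre their intervals run from -0.36 to 0.02 and from 0.02 to 0.36. Those of Klf9 (0.07 to 0.40) and Klf10 (-0.41 to -0.05) also leave out 0.

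At day 0, before any inducer, Cre and ctrl differed in none of the 9 tested members by limma. Klf9 was lower at an unadjusted p under 0.05 (-0.21, interval from -0.38 to -0.05, adjusted p = 0.144), and limma voom gave 0 as well. The background was small, with 1.63% of all tested genes higher and 1.70% lower, or 1.09% and 1.72% under median-of-ratios scaling and 0.973% and 1.63% under quantile normalization. The interval was from -0.09 to 0.15 for Klf3, from -0.25 to 0.28 for Klf4 and from -0.31 to 0.29 for Klf2.

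Full-length NFIA already changed 6 members at day 0 against Cre. Klf13 was 3.59-fold higher in mean FPKM (1.12 ± 0.11, adjusted p = 2.93e-05), Klf10 2.15-fold (0.94 ± 0.09, adjusted p = 2.67e-05) and Klf4 1.48-fold (0.56 ± 0.12, adjusted p = 0.00536). Klf2 was 1.70-fold lower (-0.65 ± 0.13, adjusted p = 0.00449), Klf6 1.47-fold (-0.53 ± 0.09, adjusted p = 0.00163) and Klf3 1.27-fold (-0.34 ± 0.05, adjusted p = 0.000965). All tested genes were higher in 14.7% and lower in 12.9%. Klf4 was thus higher with NFIA at day 0 and lower with it at day 7.

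The mutant against Cre at day 0 gave 3 passing members. Klf3 was 1.29-fold lower (-0.37 ± 0.05, adjusted p = 0.0012) and Klf6 1.37-fold lower (-0.44 ± 0.09, adjusted p = 0.00859), where 9.02% of genes were lower. Klf10 was 1.40-fold higher (0.40 ± 0.09, adjusted p = 0.0114), where 9.26% were higher, and lost its call without Cre + NFIA Δpro#3 replicate 1 (0.35, adjusted p = 0.0519). Klf2 and Klf13 differed by -0.37 (adjusted p = 0.0862) and 0.28 (adjusted p = 0.101) and passed with all 24 libraries in the model (adjusted p = 0.0262 and 0.0355). Klf2 also passed without Cre replicate 1 (-0.52, adjusted p = 0.0157). Klf4 differed by 0.12, with an interval from -0.15 to 0.38.

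The mutant was compared directly with full-length NFIA at day 0, a comparison added after the data were seen. Klf13 was 2.43-fold lower with the mutant (-0.84 ± 0.11, adjusted p = 0.00048), Klf10 1.54-fold lower (-0.54 ± 0.09, adjusted p = 0.00264) and Klf4 1.37-fold lower (-0.44 ± 0.12, adjusted p = 0.0403), where 5.59% of all tested genes were lower. Klf15 was also lower at an unadjusted p under 0.05 (-0.28, interval from -0.46 to -0.10, adjusted p = 0.0572), and limma voom gave 4 lower members. No member was higher by limma, where 4.50% of genes were, and 0 were at an unadjusted p under 0.05 or with limma voom. The Klf4 call was lost without any 1 of ctrl replicates 1 and 3, Cre + NFIA replicates 1 and 2 and the 3 Cre + NFIA Δpro#3 libraries (-0.47 to -0.38, adjusted p of 0.0504 to 0.148), and with no filter on low values (-0.44, adjusted p = 0.0845). For Klf3, Klf6 and Klf2, which full-length NFIA lowered, the differences between mutant and full-length were -0.03 (interval from -0.15 to 0.09), 0.09 (from -0.11 to 0.30) and 0.28 (from -0.01 to 0.58).

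**Figure D5:**
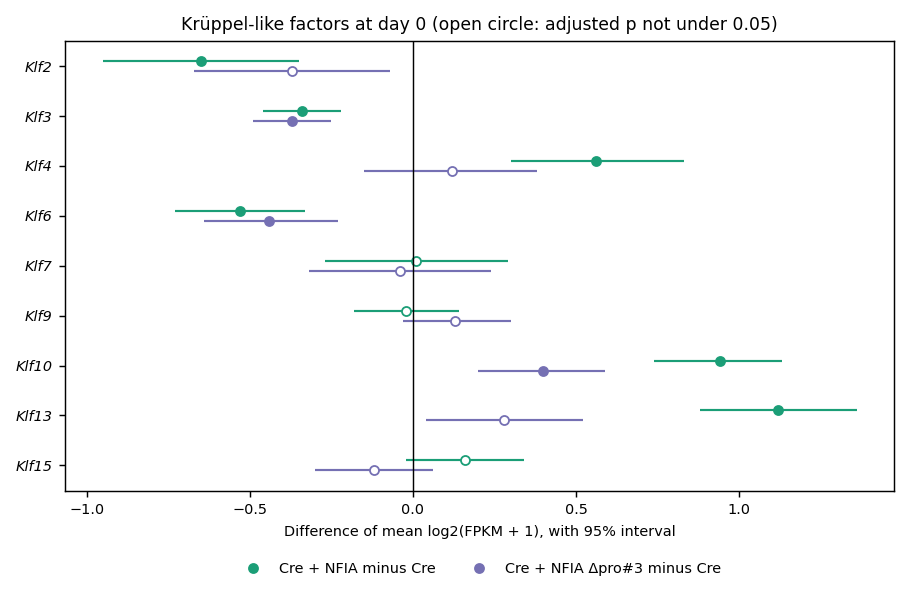
Difference of mean log2(FPKM + 1) from Cre at day 0 (x axis) with its 95% interval for the 9 tested members (y axis), for Cre + NFIA and the mutant (colour), which share the Cre libraries. For Klf3 the pair stands at -0.34 and -0.37 and for Klf6 at -0.53 and -0.44, while for Klf13 it stands at 1.12 and 0.28.

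Whether a difference between cell types changed from day 0 to day 7 was tested as an interaction over all 24 libraries. For Cre against ctrl, Klf2, Klf3, Klf4, Klf6, Klf7 and Klf9 had a higher difference at day 7 and Klf10 a lower one, beside 29.7% of all tested genes higher and 19.5% lower, or 22.4% and 26% with median-of-ratios size factors. The Klf10 term was -0.32 ± 0.12 (SE) and lost its call without any 1 of ctrl day 0 replicate 2, Cre day 0 replicate 3, ctrl day 7 replicates 2 and 3 and Cre day 7 replicate 2 (-0.31 to -0.25, adjusted p of 0.0561 to 0.0941), with a pseudocount of 0.1 (adjusted p = 0.052) and with limma voom (adjusted p = 0.0946). For Cre + NFIA against Cre, Klf2, Klf3, Klf4, Klf6, Klf7 and Klf13 had a lower difference at day 7, beside 30.1% of all genes, or 23.1% with median-of-ratios size factors, where 5 members passed and Klf6 did not. No member had a higher one by limma, at an unadjusted p under 0.05 or with limma voom (0 each), where 18.8% of genes did, or 25% with those factors. Klf4 had the largest term of the members, -2.01 ± 0.15 (adjusted p = 1.07e-09), and was past 3-fold, as 1.16% of all genes were. The Klf13 term was -0.84 ± 0.13 (adjusted p = 1.92e-05), since its difference was 1.12 at day 0 and 0.28 at day 7. The Klf10 term was -0.27 (adjusted p = 0.0647) and passed with a pseudocount of 0.1 (-0.39, adjusted p = 0.024), with limma voom (-0.41, adjusted p = 0.0253), and without Cre day 0 replicate 3 (-0.35), Cre + NFIA day 7 replicate 2 (-0.33) or Cre + NFIA Δpro#3 day 7 replicate 3 (-0.27).

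For the mutant against Cre, Klf3 and Klf6 had a higher difference at day 7, by 0.40 ± 0.10 (adjusted p = 0.00627) and 0.42 ± 0.14 (adjusted p = 0.0394), and Klf10 a lower one (-0.63 ± 0.12, adjusted p = 0.00104). All tested genes were higher in 7.79% and lower in 10.4%, or 10.2% and 8.9% with quantile normalization. The Klf6 term lost its call here without any 1 of Cre day 0 replicates 1 and 2, Cre + NFIA Δpro#3 day 0 replicates 1 and 3, Cre day 7 replicate 2 and Cre + NFIA Δpro#3 day 7 replicates 1 and 3 (0.34 to 0.42, adjusted p of 0.0693 to 0.127), with no filter on low values (adjusted p = 0.0617) and with the replicate block (adjusted p = 0.0545). For Cre + NFIA against Cre the Klf6 term of -0.36 lost its call without any 1 of Cre day 0 replicates 2 and 3, Cre + NFIA day 0 replicate 2, Cre day 7 replicates 1 and 3 and Cre + NFIA day 7 replicates 1 and 3 (-0.37 to -0.30, adjusted p of 0.0505 to 0.107). It also lost it with median-of-ratios size factors (-0.23, adjusted p = 0.13), quantile normalization (-0.27, adjusted p = 0.121), a pseudocount of 5 (-0.26, adjusted p = 0.077), no filter on low values (-0.36, adjusted p = 0.0589) and the replicate block.

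Of 16 other Krüppel-like factor and SP genes 5 were tested. In Cre against ctrl at day 7, 1 passed as higher and 1 as lower, and in Cre + NFIA against Cre likewise 1 and 1, where 36.1% and 22.7% and then 27.0% and 35.9% of all tested genes did. Klf11, a relative of Klf10 that is named here after its values were seen, was the lower one in Cre (-0.40 ± 0.11, adjusted p = 0.00854) and the higher one in Cre + NFIA (0.48 ± 0.11, adjusted p = 0.00263). None of the 5 passed in the comparisons at day 0 by limma.

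Genes that Krüppel-like factors act on or beside in adipocytes numbered 14, of which 13 were tested. In ctrl 12 rose and 1 fell from day 0 to day 7, with a median difference of 2.55 against -0.05 over all tested genes, of which 32.9% rose and 38.1% fell. In Cre against ctrl at day 7, 3 were higher and 8 lower (median -1.21 against 0.09), in Cre + NFIA against Cre 9 higher and 3 lower (0.86 against -0.06), and with the mutant against Cre 0 higher and 9 lower (-1.06 against 0.02). Over all tested genes 36.1% were higher and 22.7% lower in the first of these comparisons, 27.0% and 35.9% in the second and 7.70% and 10.0% in the third. Dlk1, the preadipocyte gene that KLF6 represses, read 4.01, 4.30 and 3.42 FPKM in ctrl, 11.8, 13 and 13 in Cre, 1.08, 1.30 and 1.45 in Cre + NFIA and 5.06, 5.98 and 5.60 in the mutant at day 7, and was 9.86-fold lower in Cre + NFIA than in Cre. Pparg read 50.1, 51.2 and 54.8 in ctrl, 24, 27.0 and 16.3 in Cre, 60.2, 63.2 and 56.5 in Cre + NFIA and 6.38, 9.29 and 11.4 in the mutant, and the mutant was lower than Cre (-1.23 ± 0.19, adjusted p = 0.00122). At day 0 Cebpb, a target of KLF4, was higher than in Cre with full-length NFIA (1.25 ± 0.20, adjusted p = 0.00111) and with the mutant (1.23 ± 0.20, adjusted p = 0.00224). Cebpa, which KLF3 represses, was higher with full-length NFIA (1.17 ± 0.11, adjusted p = 2.07e-05) and lower with the mutant (-0.62 ± 0.11, adjusted p = 0.00293). Klf3 was lower with both. Whether the family's levels bear on any of these genes was not tested.

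Of 11 partners and co-regulators all were tested. Against ctrl at day 7, 5 were higher and 1 lower in Cre (median 0.13 against 0.09), and against Cre 2 were higher and 7 lower in Cre + NFIA (-0.22 against -0.06). The shares of all tested genes were 36.1% higher and 22.7% lower, and 27.0% and 35.9%. Fbxw7, a ubiquitin ligase subunit, read 4.54, 4.07 and 4.83 in ctrl, 7.51, 6.37 and 6.86 in Cre, 4.37, 4.68 and 3.97 in Cre + NFIA and 6.15, 6.30 and 6.62 in the mutant. Ctbp1, the co-repressor of KLF3, was lower in Cre + NFIA than in Cre (-0.27 ± 0.05, adjusted p = 0.000303).

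Immediate early genes, a class that Klf4, Klf6 and Klf10 are often grouped with, numbered 15, all tested. At day 7, 8 were higher and 0 lower in Cre against ctrl (median 0.32 against 0.09 over all tested genes), 0 higher and 12 lower in Cre + NFIA against Cre (-0.39 against -0.06), and 2 higher and 0 lower with the mutant against Cre (0.06 against 0.02). Of all tested genes 36.1% were higher and 22.7% lower, 27.0% and 35.9%, and 7.70% and 10.0%, in the same order. Junb read 17.6, 20.3 and 13.4 FPKM in ctrl, 28.1, 29.7 and 31.4 in Cre, 13.2, 12.1 and 14.3 in Cre + NFIA and 33.7, 42.5 and 35.6 in the mutant, and Ier3 10.4, 11.6 and 11.3 in ctrl, 15.1, 15.7 and 16.9 in Cre, 7.31, 8.39 and 8.28 in Cre + NFIA and 18.3, 16.3 and 16.6 in the mutant. In both genes Cre and the mutant lay above ctrl and Cre + NFIA with no overlap. Of 8 glucocorticoid response genes, listed because Klf9 and Klf15 are induced by glucocorticoids, 3 were higher and 3 lower in Cre against ctrl (median 0.15 against 0.09) and 4 and 4 in Cre + NFIA against Cre (-0.05 against -0.06), beside the same shares of all genes. Tsc22d3 read 24.8, 27.1 and 25.8 in ctrl, 16.2, 17.2 and 11.5 in Cre, 20.7, 22.2 and 19.5 in Cre + NFIA and 8.23, 10.2 and 10.6 in the mutant and Fkbp5 10.5, 10.9 and 9.52 in ctrl, 13.1, 12.7 and 13.8 in Cre, 10.0, 11.2 and 10.5 in Cre + NFIA and 14.8, 13.8 and 15.1 in the mutant, so these 2 genes of the list were ordered differently.

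For the 3 members with the widest range of group means, the tested genes with the most similar pattern were found by Pearson's r of log2(FPKM + 1) over the 24 libraries, a description in which all points share day and library. For Klf4 they included Sox9 (r = 0.986) and Tnrc18 (0.98). Sox9, a transcription factor of chondrocytes and precursors, had mean FPKM of 11.1, 12.2, 17.6 and 13.2 in ctrl, Cre, Cre + NFIA and the mutant at day 0 and 4.37, 7.04, 2.66 and 8.84 at day 7. Klf10 was most like Raph1 (0.972), Tatdn2 (0.971) and Ehd2 (0.968), and Klf13 most like Dock5 (0.968), Agt (0.96) and Ctnna1 (0.956). Agt, which encodes angiotensinogen, had means of 1.83, 1.69, 7.08 and 1.38 at day 0 and 41.5, 33.9, 35.3 and 17.8 at day 7.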

How the data were processed

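Libraries were made with a stranded mRNA kit. According to the study's methods, the authors aligned reads to mm9 with STAR 2.5.3a, kept uniquely aligned reads, counted matched-strand reads per gene and deposited FPKM. Divided by the value of a single read, 100% of the FPKM values in each library came out whole (tolerance 0.05), so reads and totals (7.73 to 14.62 M, M being 1000000) were recovered for depth. A floor of 3 reads, 0.205 to 0.388 per 1000000, covers counting error only.

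Groups and replicates came from the sample titles. The 10 members and all lists were chosen with earlier results of these data known. The main test was limma (version 3.58.1, R 4.3.3) with a trend of variance on log2(FPKM + 1), for the 12640 genes that reached an FPKM of 1 in 3 or more libraries. It was two-sided, with Benjamini-Hochberg adjustment over all of them. Within a day the model held 12 libraries, and otherwise all 24. There were 15 comparisons, 1 of them added after seeing the data. The fit was tested on simulated data. Over 24 pairs of replicates a chi-square of read counts was 2.17 to 15.1 per degree of freedom, above the 1 of sampling noise, so no library was counted as a repeat. Replicate numbers were not used as pairs in the main test. Members were all described, list genes were given by counts with at most 4 examples, and likeness used the 3 members with the widest range. Marker lists were those of adipocyte, precursor, endothelial, leukocyte, epithelial, mesothelial and muscle cells. Promoters were from RefSeq (GRCm38.p6). Alternatives were other pseudocounts, filters, scalings, models, a replicate block, limma voom and each library left out.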

Additional observations from a re-analysis of the deposited data

Results flagged for a closer look

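These results are listed because a test of the difference between day 7 and day 0 passed, so the difference between cell types was not the same at both days (limma, differences of log2(FPKM + 1) at day 7 minus day 0, n = 3 per group). For Cre against ctrl the change was 1.09 for Klf2, 0.70 for Klf3, 1.02 for Klf4, 0.67 for Klf6, 0.64 for Klf7 and 0.54 for Klf9, while it was -0.32 for Klf10. In the day 0 comparison none of the 9 tested members had passed with limma, and Klf9 alone was lower at an unadjusted p under 0.05.

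For Cre + NFIA against Cre the change was -0.61 for Klf2, -0.59 for Klf3, -2.01 for Klf4, -0.36 for Klf6, -0.83 for Klf7 and -0.84 for Klf13. Klf4 passed at both days with opposite signs, 0.56 at day 0 and -1.45 at day 7. For Cre + NFIA Δpro#3 against Cre it was 0.40 for Klf3, 0.42 for Klf6 and -0.63 for Klf10, and Klf3 and Klf6 had passed as lower at day 0 only. Adipocyte marker sums moved with day and cell type, and their part in these changes was not tested. In no group could single outlying libraries be tested, since each held 3.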

How the results depend on the processing

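Of 135 member changes tested 82 passed, 64 of them under every alternative and 9 changes of Klf13 under all but a filter of mean FPKM of at least 5, which left Klf13 untested. The other 9 lost the call under some alternatives, given beside their values in the report. Comparisons share libraries, so the 135 changes are not separate results. The share of all tested genes that passed was not pooled in this way. It is given beside each comparison above, and was 1.63% to 40.4% for a single direction. The 82 count both directions, so they cannot be set beside a share for a single direction. From day 0 to day 7 in ctrl, for example, 32.9% of all tested genes rose and 38.1% fell. The count for Cre + NFIA Δpro#3 against Cre at day 7 went from 1 to 0 with a pseudocount of 0.1, no filter, median-of-ratios size factors, the replicate block, limma without trend or only the groups compared, and was 0 to 1 with a library left out. At day 0 that comparison gave 5 in place of 3 with all 24 libraries in the model. Signs were followed only in changes that passed and in a chosen part of the others, not in all 135. Among those followed, signs turned in 2 differences, neither of which passed. Klf4 in Cre + NFIA Δpro#3 against Cre at day 0 was -0.036 to 0.211 with a library left out (lowest without Cre replicate 1), and Klf3 in Cre + NFIA Δpro#3 against Cre + NFIA at day 0 was -0.072 to 0.03 (highest without Cre + NFIA replicate 2). The cause was not tested.

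Pairs of libraries with the same replicate number correlated at -0.274 to 0.201 in their deviations from group means. The labels do not say whether the numbers pair libraries, and such correlations cannot exclude it. With the replicate block, the Klf6 changes between days were -0.36 (adjusted p = 0.0532) for Cre + NFIA and 0.42 (adjusted p = 0.0545) for the mutant against Cre, Klf9 in the mutant against Cre at day 7 was 0.24 (adjusted p = 0.0696), and Cre + NFIA Δpro#3 against Cre + NFIA at day 0 gave 4 members in place of 3. Over all genes, Cre against ctrl at day 0 gave 206 higher and 215 lower, 6 and 26 with only the groups compared, 359 and 277 with all libraries in the model, and 61 and 114 without Cre replicate 3. Cre + NFIA Δpro#3 against Cre at day 7 gave 973 and 1265, or 517 and 709 with only the groups compared. The planned edgeR and DESeq2 alternatives were not run, since the deposited unit is FPKM, and limma voom on recovered reads was added after seeing the data. Depth limits Klf5 (1 to 19 reads) most.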
